A study of Lotus japonicus with 12 samples.

Results

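The 150 genes described here are those of the legume Lotus japonicus whose transcripts were higher in mature than in young root nodules of the cpop1 mutant, while they stayed close to their young level in wild-type (WT) nodules. They were chosen by their measured values, from 20478 annotated gene IDs in a table of 29531 features. Levels are in FPKM, a fragment count divided by transcript length and by the library's size, and differences are, unless said otherwise, between group medians of log2(FPKM + 1). A gene had to reach 1 FPKM in 3 or more of the 12 libraries with a mean under 1000 FPKM, which 16701 annotated IDs did. It also had to differ by less than 1 between the genotypes in young nodules, by less than 0.5 between the ages in WT, and to be higher by at least 1 at the later age in cpop1. These bounds left 233 genes, of which the 150 with the largest difference between the ages in cpop1 were kept.

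The libraries came from root nodules, 3 from each of 4 groups: WT at 10 days post inoculation (dpi), WT at 21 dpi, cpop1 at 10 dpi and cpop1 at 21 dpi. The labels give the mutant genotype as cpop1/hemf2, and do not say how the allele arose or whether 1 or more lines were used. Per the labels' protocols, all plants were inoculated with the rhizobium Mesorhizobium loti after transfer to vermiculite, and the series title calls CPOP1 a heme synthesis enzyme. Whether the libraries within a group stem from different plants is not in the labels, so the spread between them may be technical.

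A root nodule is an organ in which plant cells house rhizobia that reduce atmospheric nitrogen to ammonia. The bacterial nitrogenase is inactivated by oxygen, and the plant's leghemoglobins, which carry heme, bind oxygen and keep its free concentration low while still delivering it for respiration. Plants make heme through the tetrapyrrole pathway, which also leads to chlorophyll. As nodules age, infected cells fill with bacteria and differentiate, and later senesce. The rise of a transcript in whole nodules can reflect more RNA per cell or more of the cells that hold it, and these cannot be told apart in bulk samples.

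The deposited table does not pair the IDs with gene names, and 0 of the 150 members matched the RefSeq gene table of Lotus japonicus, so members are given by ID with no function, and at most 2 IDs or pairs of IDs are named for each description. For the same reason the nodule markers and the mutated gene itself were not checked here, and members that share reads with a near-identical copy cannot be recognised.

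Replicate 3 of WT at 10 dpi stood apart from its group: across the 22249 tested features its log2 values had Pearson correlations of 0.839 and 0.846 with the other replicates, against 0.968 to 0.991 for all other pairs of replicates. Results that rest on it are given with and without it. Read depths are unknown. The total of FPKM, which is not a depth, ranged from 985272 to 1224719 per library, and the 3 most abundant features of the series took 29.6% to 31.6% of it in mature cpop1 nodules against 9.41% to 17.8% elsewhere.

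In mature cpop1 nodules the median member stood at 17.8 FPKM, against 3.79 in young cpop1 nodules, 3.45 in young WT nodules and 3.42 in mature WT nodules. Over all tested features the corresponding medians were 8.02, 9.98, 8.77 and 7.04 FPKM. The median member was thus below the median tested feature in 3 groups and above it in mature cpop1 nodules. Even so, 56 members in young WT, 55 in mature WT and 58 in young cpop1 nodules had medians of 10 FPKM or more. The difference between the ages in cpop1 ranged from 1.22 to 4.36 on the log2 scale with a median of 1.58, while the median over all tested features was -0.20. Because the members were chosen on these values, they describe the set and test nothing.

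**Figure D1:**
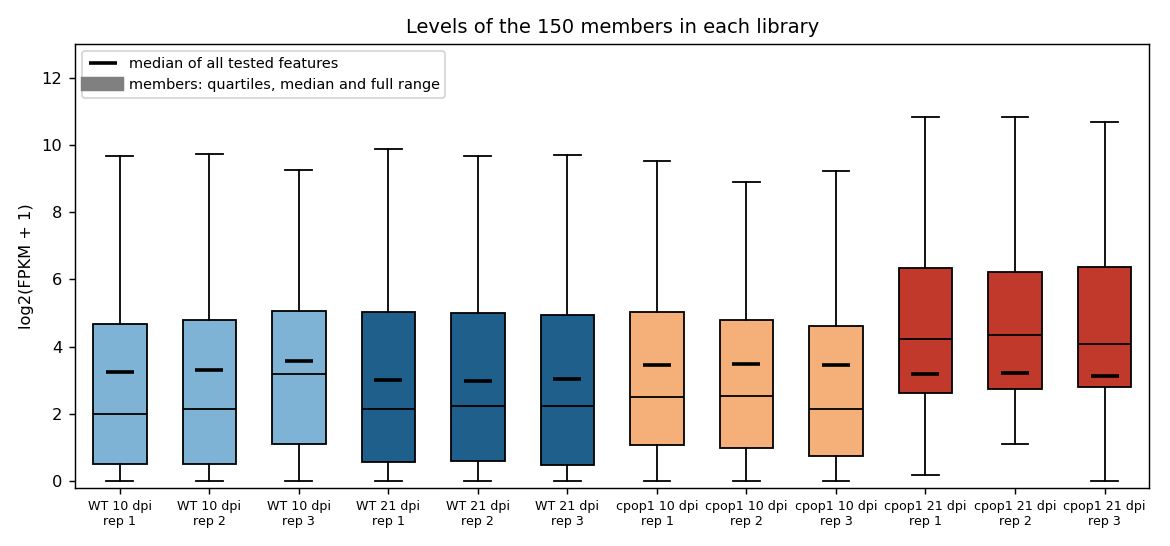
Box plots of log2(FPKM + 1) of the 150 members in each of the 12 libraries (x axis: group and replicate), with boxes for quartiles, a line for the median, whiskers for the full range and a heavy dash for the median of all tested features. The member medians lie between 4.08 and 4.33 in the 3 mature cpop1 libraries, above the dash, and between 2.0 and 3.18 in the other 9, below it.

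For the members the 3 mature cpop1 libraries were about as alike as for all tested features. The median member was at 17.8, 19.1 and 15.96 FPKM in replicates 1, 2 and 3 of cpop1 at 21 dpi, and at 4.71, 4.81 and 3.40 FPKM in those of cpop1 at 10 dpi. In WT it was at 3.37, 3.66 and 3.65 FPKM at 21 dpi, and at 3.0, 3.39 and 8.07 FPKM at 10 dpi, where replicate 3 was the highest of the 9 libraries outside mature cpop1. In 121 of the 150 members the mature cpop1 libraries lay within 1.5-fold of each other, a count whose share over all features was not computed. The median SD within that group was 0.14 on the log2 scale, against 0.13 over all tested features.

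Summed over the 150 members, FPKM took 1.72 ± 0.0700% of the library total in mature cpop1 nodules (SD, n = 3 libraries in this and the following groups). The share was 0.598 ± 0.0174% in young cpop1 nodules, 0.766 ± 0.0324% in young WT nodules and 0.676 ± 0.0410% in mature WT nodules. The 10 most abundant members held 48.8% to 64.1% of that sum in each library, so the share follows a few abundant genes, whereas the medians weigh all members equally.

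In 146 members every mature cpop1 library lay above every young cpop1 library, which was so in 17.5% of all tested features. The ages overlapped in the other 4. LotjaGi4g1v0356500, the most scattered of these, was at 2.16, 6.06 and 0 FPKM in mature cpop1 nodules and at 6.43, 0 and 0 FPKM in young ones. Only its group medians part the ages, since replicate 1 of the young nodules was the highest of all 12 libraries. Every mature cpop1 library lay above every mature WT library in 144 members (40.1% of tested features) and above every young WT library in 135 (14.8%). In 130 members the mature cpop1 libraries exceeded all 9 others (7.59% of tested features), and in 142 they exceeded the 8 others when WT 10 dpi replicate 3 was set aside (9.7%). Of the 20 members in which another library reached the mature cpop1 range, 12 were reached by that replicate alone.

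**Figure D2:**
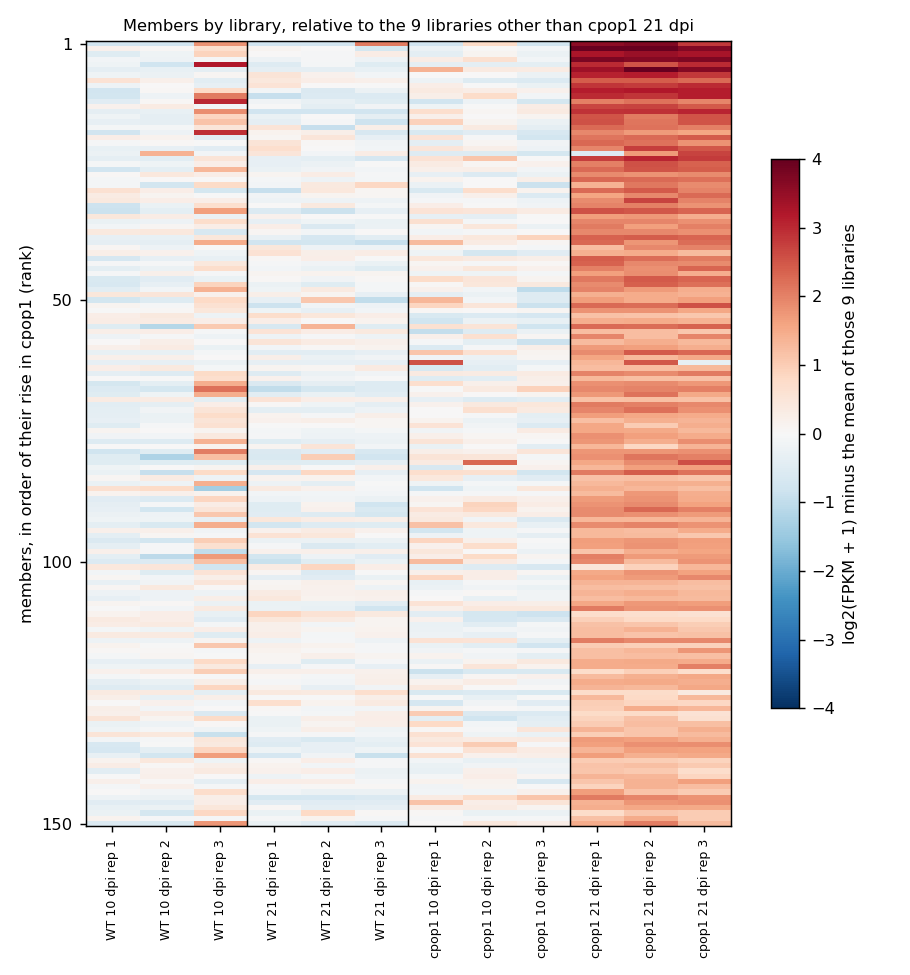
Heat map of the 150 members (rows, ordered by their difference between the ages in cpop1) in the 12 libraries (columns); colour is log2(FPKM + 1) minus the gene's mean over the 9 libraries other than cpop1 at 21 dpi. The 3 mature cpop1 columns are red in nearly all rows, and the WT 10 dpi replicate 3 column holds scattered red rows that replicates 1 and 2 do not share.

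A linear model fitted to all 22249 tested features (limma) called 139 of the 150 members higher at 21 than at 10 dpi in cpop1 at a Benjamini-Hochberg adjusted p under 0.05, where 8.03% of tested features were called in that direction. It called 140 higher in cpop1 than in WT at 21 dpi, against 29.2% of tested features. The difference of the genotype effects between the ages was called positive in 119 members, against 9.71% of tested features. Without WT 10 dpi replicate 3 the model called 147 for the age difference in cpop1 (15.1% of tested features) and 144 for the mature genotype difference (37.3%). For the difference of the genotype effects the count was then 138 (17.1%). The rule fixes these contrasts, so nothing is read from the shares. Members without a call for that difference are not shown to lack it.

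The 2 members with the largest difference between the ages in cpop1 came from low starting levels. LotjaGi1g1v0494200, ranked first, was at 19.5, 21.4 and 11.3 FPKM in mature cpop1 nodules. It was listed at 0 in 6 of the 9 other libraries, and it stood at 1.93 FPKM in cpop1 10 dpi replicate 2, 4.94 in WT 10 dpi replicate 3 and 6.17 in WT 21 dpi replicate 3. Its presence in single libraries of every other group gave it also the largest spread of all members, a pooled SD of 1.22 on the log2 scale. LotjaGi3g1v0469100, ranked second, was far steadier. It was at 31.85, 32.9 and 25.9 FPKM in mature cpop1 nodules and at 0.79, 1.16 and 0.93 FPKM in young ones. In WT it was at 1.37, 1.14 and 2.34 FPKM at 10 dpi and at 1.23, 1.07 and 0.27 FPKM at 21 dpi, so all 9 other libraries were below 2.5 FPKM.

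Among the most abundant members, the mature cpop1 nodules added to a level that was already high. LotjaGi1g1v0175900 had the highest median in mature cpop1 nodules, with 1831, 1814 and 1644 FPKM. It was at 298, 239 and 234.5 FPKM in young cpop1 nodules, at 510.1, 391 and 254 in young WT nodules and at 454, 409.6 and 391.95 in mature WT nodules. The young groups overlapped through WT replicate 3, whereas every mature cpop1 library was above all others. LotjaGi1g1v0245300 followed with 1489, 1511 and 1556 FPKM in mature cpop1 nodules, against 413, 478 and 599 in young ones. Its WT libraries lay between 609 and 841 FPKM at both ages, with no overlap with either cpop1 group.

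The least scattered members show the pattern at a low and at a middle level. LotjaGi3g1v0494100 was at 5.73, 5.58 and 5.43 FPKM in mature cpop1 nodules and between 0.2 and 0.61 FPKM in the other 9 libraries. LotjaGi5g1v0049500 was at 129, 136 and 121 FPKM in mature cpop1 nodules and at 47.8, 50.9 and 44.15 FPKM in young ones. Its WT libraries were at 42.9, 42.8 and 42.9 FPKM at 10 dpi and at 61.8, 56.0 and 56.0 FPKM at 21 dpi. The WT groups of this gene did not overlap either, the older being higher by 0.38 on the log2 scale, which is inside the bound of 0.5.

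**Figure D3:**
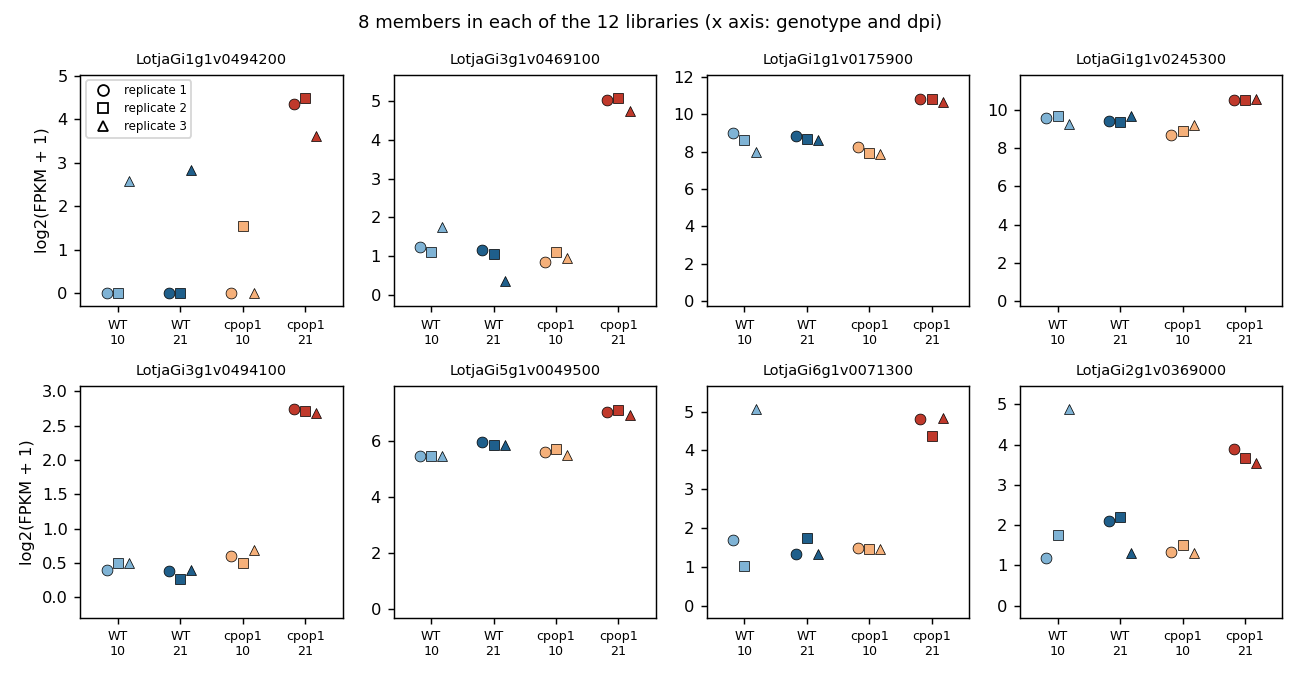
log2(FPKM + 1) of 8 members (panels) in the 12 libraries, grouped by genotype and dpi on the x axis, with a circle, square and triangle for replicates 1, 2 and 3. The first 6 panels are the pairs with the largest difference between the ages, the highest level and the smallest spread; in the last 2, LotjaGi6g1v0071300 and LotjaGi2g1v0369000, the triangle of WT at 10 dpi reaches or passes the mature cpop1 libraries.

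The members started from different levels. In young cpop1 nodules 43 had a median under 1 FPKM, 49 lay from 1 to under 10 and 58 at 10 or more. Their median differences between the ages were 1.57, 1.70 and 1.52 on the log2 scale, and the pseudocount understates those of the first class. In the first class the mature cpop1 median reached 1.34 to 31.85 FPKM, in the second 4.84 to 34.8 and in the third 29.9 to 1814. Among the 87 members at 1 FPKM or more in all 12 libraries, the linear ratio of group medians between mature and young cpop1 nodules was 2.37 to 15.5, with a median of 3.07. For the same 87 members the WT ratio of 21 to 10 dpi was 0.684 to 1.51, with a median of 0.977.

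A group of 37 members was near silent outside mature cpop1 nodules, with medians under 1 FPKM in the other 3 groups. In mature cpop1 nodules their medians were 1.34 to 19.5 FPKM, and 36 of the 37 reached 1 FPKM in all 3 libraries there. Of these 37, 20 were under 1 FPKM in each of the 9 other libraries, and the level bound itself required these 20 to reach 1 FPKM in all 3 mature cpop1 libraries. Of the remainder, 14 reached 1 FPKM in 1 of the 9 libraries, 2 in 2 of them and 1 in 3. WT 10 dpi replicate 3 held 8 such members, and replicates 1 and 2 of cpop1 at 10 dpi held 7 and 4. No other library held more than 1. At the other end, 32 members had a median of at least 100 FPKM in mature cpop1 nodules, and 15 of these were at 100 FPKM or more in mature WT nodules too.

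LotjaGi3g1v0103100 differed most from WT in mature nodules besides the first-ranked gene. It was at 12.6, 20.8 and 15.4 FPKM in mature cpop1 nodules, at 2.43, 0.65 and 0.63 FPKM in young ones and at or below 0.06 FPKM in all 6 WT libraries. Transcripts of this gene were therefore near the limit of the table in WT and present at both ages in cpop1. The median difference between the genotypes in mature nodules was 1.88 over the members, and 132 were higher in cpop1 by at least 1 on the log2 scale. All 150 medians were higher in cpop1 as deposited, and 149 with the libraries shifted to a common median or to a common total.

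Not every member ended above WT by the same margin. For 18 members mature cpop1 nodules exceeded mature WT nodules by less than 1 on the log2 scale, and for 3 of these by less than 0.5, the lowest being 0.10. Of the 18, 17 had been lower in cpop1 than in WT in young nodules, with a median difference of -0.75. Their gain with age in cpop1, a median of 1.37, started from a level below that of WT. The bounds of the rule tie these quantities together, since the mature difference is the young difference plus the gap between the age differences. Of the 66 members higher by at least 2 in mature cpop1 nodules, 53 were already higher in young ones.

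In young nodules the genotypes were held within 1 of each other by the rule, and members lay on both sides: 85 were higher and 62 lower in cpop1 by their medians, with 89 within 0.5, and 69 to 79 were higher under the 4 other scalings of the libraries. The libraries of the genotypes did not overlap in 29 members, against 28.5% of tested features. The linear model called 19 members at 10 dpi, 6 higher and 13 lower in cpop1, where 22.7% of tested features were called, 11.4% higher and 11.3% lower. Without WT 10 dpi replicate 3 it called 69, 42 of them higher and 27 lower, against 63.9% of tested features, 36% higher and 27.9% lower. Without replicate 1 or 2 of that group it called 9 and 8, against 10.1% and 9.36% of tested features. Without cpop1 10 dpi replicate 2 it called 8, against 10.6%, and without cpop1 21 dpi replicate 3 it called 12, against 17.2%. In a fit to the young libraries alone limma called 0 members at an adjusted p under 0.05, against 3.06% of tested features. In that limma fit 19 members had an unadjusted p under 0.05, for which the share over all features was not computed. The count of young differences and its background both moved with single libraries and with the fit, and a gene inside the bound is not shown to be equal.

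Across ages in WT, 59 members were higher and 80 lower by their medians, and 11 had equal medians, all within the bound of 0.5. The direction depends on the scaling: 124 were higher when the libraries were shifted to a common median, 95 after quantile normalization, 44 at a common total and 57 at a total without the 20 most abundant features. The WT ages did not overlap in 24 members, against 49.2% of tested features. The linear model called 5 members, 3 higher and 2 lower at 21 dpi, where 35.8% of tested features were called, 11.3% higher and 24.4% lower. Without WT 10 dpi replicate 3 the count was 16, 9 higher and 7 lower, against 44.7% of tested features, 15.3% higher and 29.4% lower. Without replicate 1 or 2 of WT at 10 dpi it was 11 and 9, against 39.7% and 36.1% of tested features. Without replicate 1 or 2 of WT at 21 dpi it was 1 in each case, against 24.6% and 24.8%. LotjaGi3g1v0346300 and LotjaGi3g1v0394100 had the largest drop of the WT median, -0.49 each. The first was at 0.34, 0.4 and 5.18 FPKM in young WT nodules, was listed at 0 in all 3 mature ones, and was at 11.65, 12.1 and 13.01 FPKM in mature cpop1 nodules against 1.75, 0.82 and 1.18 in young ones. The second was at 0.52, 0.39 and 0.4 FPKM in young WT nodules, was listed at 0 in all mature ones, and was at 3.34, 6.5 and 3.61 FPKM in mature cpop1 nodules. In both, the older WT nodules lay below the younger ones without overlap.

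**Figure D4:**
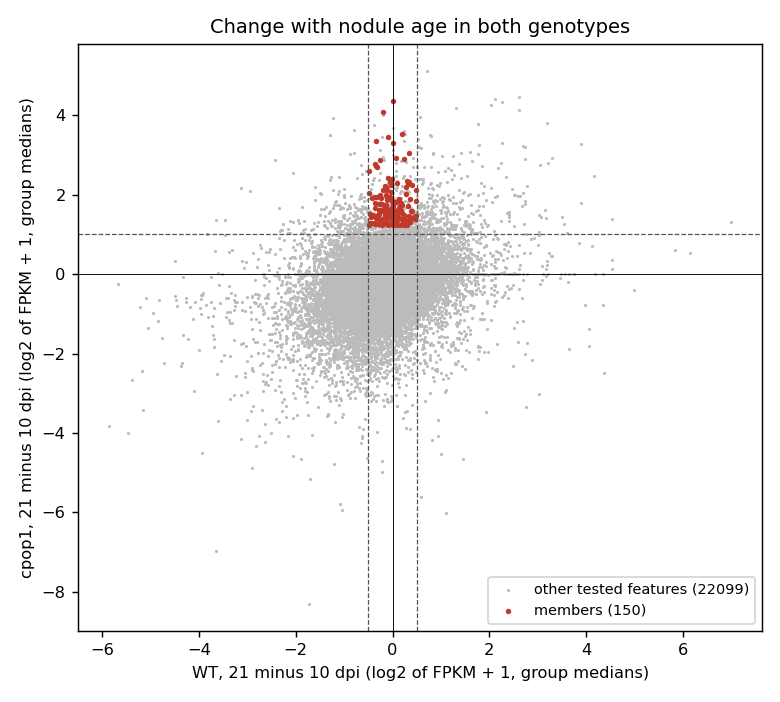
Difference of group medians of log2(FPKM + 1) between 21 and 10 dpi in WT (x axis) and cpop1 (y axis) for 22249 tested features, with the 150 members in red and dashed lines at the bounds of -0.5, 0.5 and 1. The members fill the box set by the rule, from 1.22 to 4.36 on the y axis, above a cloud whose median is at -0.20 in cpop1.

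WT 10 dpi replicate 3 parted from its group in many members, as it did in many tested features. It was the highest of the WT 10 dpi libraries in 92 of the 150, or 61.3%, against 53.9% of tested features. It exceeded the mean of replicates 1 and 2 by at least 1 on the log2 scale in 44, or 29.3%, against 21.3% of tested features. It was lower by at least 1 in 6, against 10.3% of tested features. Replicates 1 and 2 were at least 1 apart in 1 member. A median of 3 libraries is barely moved by 1 outlying library where the others are close, so the rule admits genes in which this replicate alone is high.

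In LotjaGi6g1v0071300 replicate 3 was at 32.2 FPKM in young WT nodules, beside 2.23 and 1.06 in replicates 1 and 2. Mature cpop1 nodules were at 27.2, 19.7 and 27.5 FPKM, and the other 6 libraries between 1.53 and 2.38. LotjaGi2g1v0369000 was at 28.3 FPKM in that replicate against 1.26 and 2.39 in the others, and at 13.8, 11.6 and 10.65 FPKM in mature cpop1 nodules. For these genes 1 young WT library was as high as mature cpop1 nodules or higher. In the opposite direction, LotjaGi5g1v0216500 was at 25.7 FPKM in replicate 3 and at 106 and 116 in replicates 1 and 2, and LotjaGi5g1v0343400 at 32.5 against 87.8 and 83.3. Mature cpop1 nodules were at 158 to 183 and 122 to 151 FPKM for these genes.

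Read against replicate 3 alone, mature WT nodules were lower by at least 1 in 35 members and within 0.5 in 63. Against the mean of replicates 1 and 2 they were lower by at least 1 in 0 members and within 0.5 in 140. The bound of 0.5 on the WT medians largely fixes these last counts. The shares over all features were not computed for any of them. The steadiness in WT that the rule demanded is a statement about the group medians. Among the young WT libraries replicate 3 was the highest in 61.3% of members and the lowest in 24.7%. In those members the young median was a value of replicate 1 or 2, and in the others replicate 3 could itself set it. When replicate 3 was left out, 216 annotated genes met the bounds, and 134 of the 150 members were among them. Without replicate 1 or 2 of that group, 236 and 227 met the bounds, with 111 and 106 of the members among them.

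**Figure D5:**
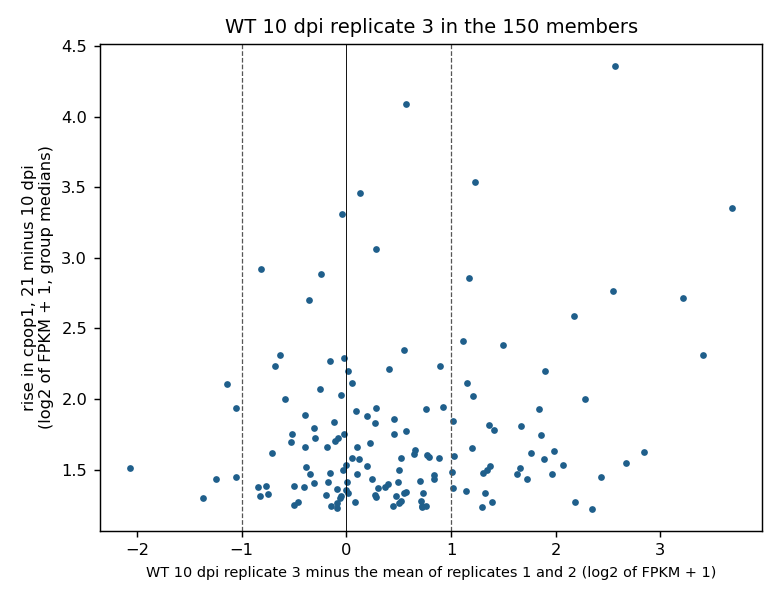
For each of the 150 members, the gap between WT 10 dpi replicate 3 and the mean of replicates 1 and 2 (x axis, log2 of FPKM + 1) and the difference between the ages in cpop1 (y axis, same scale), with dashed lines at -1 and 1. To the right of 1 lie 44 members and to the left of -1 lie 6.

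The rule was also applied with 1 library left out at a time, and the left-out library was then read. It had no part in that choice, but the median it was set against did, so the shares are partly fixed by the rule. With cpop1 21 dpi replicate 1, 2 or 3 left out, 136, 144 and 138 of the 150 genes then chosen were at least 1 above the young cpop1 median in the left-out library. Over all tested features that share was 5.05% to 5.25%. With a cpop1 10 dpi library left out, 126, 133 and 134 genes were at least 1 below the mature median in it, against 5.07% to 6.11% of tested features. In a left-out WT 21 dpi library 81.3% to 84.7% of the genes chosen stayed within 0.5 of the young median, against 55.0% to 56.4% of tested features. In a left-out WT 10 dpi library 65.3%, 70.7% and 40.7% stayed within 0.5 of the mature median for replicates 1, 2 and 3, against 57.9%, 57.1% and 32.5% of tested features. The libraries of a group may also share a source, and the shares are given as a description.

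Other sets of bounds would have drawn the edge elsewhere. The last gene kept, LotjaGi1g1v0748300, and the first one not kept, LotjaGi1g1v0606600, both had a difference between the ages in cpop1 of 1.22. At the bound of 1 itself, LotjaGi3g1v0254100 met it at 1.0 and LotjaGi1g1v0037000 missed it at 0.9965. On the young genotype difference LotjaGi2g1v0447000 was inside at 0.9951 and LotjaGi6g1v0068200 outside at 1.01 on the upper side, with LotjaGi2g1v0251900 inside at -0.94 and LotjaGi6g1v0033500 outside at -1.04 on the lower. On the WT age difference LotjaGi2g1v0380600 was inside at 0.4945 and LotjaGi1g1v0430200 outside at 0.5004, with LotjaGi3g1v0346300 inside at -0.49 and LotjaGi2g1v0358500 outside at -0.5047. On the mean level LotjaGi1g1v0245300 was inside at 870.4 FPKM and LotjaGi3g1v0262100 outside at 1269 FPKM. Of the 150 members, 21 reached 1 FPKM in exactly 3 libraries, and in 20 of these the 3 were the mature cpop1 libraries. Such genes passed the level bound only through the group in which they were high.

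The IDs carry a digit that in this annotation names the chromosome. Members were spread over all 6, with 47 on chromosome 1, 23 on 2, 28 on 3, 18 on 4, 17 on 5 and 17 on 6. This was 1.06%, 0.979%, 0.897%, 0.658%, 0.816% and 0.859% of the annotated IDs past the level bounds on each. In ID order, 4 pairs of members were next to each other among the annotated IDs of the table. LotjaGi3g1v0469100, described above, has the neighbour LotjaGi3g1v0469000, which was at 3.54, 4.5 and 2.83 FPKM in mature cpop1 nodules against 0.86, 0.42 and 0.83 FPKM at the younger age. Its levels in WT, 1.03 to 3.23 FPKM, lay between those of the cpop1 ages, apart from 1 library that exceeded the lowest mature one. LotjaGi3g1v0394100 and LotjaGi3g1v0394300 were both low, the latter at 5.13, 3.53 and 3.49 FPKM in mature cpop1 nodules and at 0.6 FPKM or less in the other 9 libraries. Of 227 tested neighbours in ID order that are not members, 7.49% were higher by at least 1 at the later age in cpop1, against 4.79% of the 16770 tested annotated IDs. Their median difference was -0.13, against -0.23.

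Features outside the annotated IDs met the same bounds: 72 with IDs beginning with BGI_novel, 39 with the ending _LC and 3 with any other ID. This is 2.44%, 1.6% and 4.35% of those past the level bounds, against 1.4% for annotated IDs. The class of other IDs is not limited to organelle genes. BGI_novel_G000821 was at 465, 431 and 388 FPKM in mature cpop1 nodules and at 41.1, 38.7 and 28.5 FPKM in young ones. In WT it was at 20.9, 24.2 and 53.1 FPKM at 10 dpi and at 22.9, 20.55 and 18.9 FPKM at 21 dpi. LotjaGi1g1v0247100_LC was at 39.4, 38.25 and 34.4 FPKM in mature cpop1 nodules and at 4.25 FPKM or less in the other 9 libraries. Both had every mature cpop1 library above all others, as most members did.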

How the data were processed

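RNA-seq of 12 root nodule libraries was used. The deposited values are FPKM, which the authors computed per the file headers, in 1 column per library. The submitters' processing notes list HISAT and Bowtie2 2.2.5 without their roles. Genome build and annotation: not given in the sources used here. Columns named hemf2 were tied to cpop1 samples through the descriptions in the labels. Since FPKM scale with the library total, a few abundant transcripts shift all others. Read depth is unknown; over 56 to 125 rarely detected features per library, the most frequent ratio of low values to WT 10 dpi replicate 1 was 1.0 to 1.04.

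Members were found with Python 3.11.15 and pandas 2.3.3. limma 3.58.1 in R 4.3.3 fitted 1 mean per group to log2(FPKM + 1) of features with at least 1 FPKM in at least 3 libraries (lmFit, contrasts.fit, eBayes with trend; Benjamini-Hochberg adjusted p under 0.05 over all 22249), and was tested on simulated data. Members, named-ID rules and tests were chosen with earlier results of these data known. IDs named are, per description, the 2 most extreme members, the neighbouring pairs, and the features at each bound. LotjaGi4g1v0356500 is the second of the 2 members with the largest pooled SD. Alternatives were other pseudocounts, filters, scalings, fit settings, a replicate block, other bounds and each library left out.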

Additional observations from a re-analysis of the deposited data

Results flagged for a closer look

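The difference of the genotype effects between the ages was called positive in 119 of the 150 members (limma, adjusted p under 0.05). For the members with the largest difference between the ages, the highest level or the largest mature difference from WT, the value fitted by limma from group means was 4.50 for LotjaGi3g1v0469100, 2.61 for LotjaGi1g1v0175900, 1.64 for LotjaGi1g1v0245300 and 3.02 for LotjaGi3g1v0103100 on the log2 scale. LotjaGi1g1v0494200, ranked first by its medians, had a fitted difference of 3.55 that did not pass (limma adjusted p = 0.0664). Without WT 10 dpi replicate 3 the count of positive calls was 138 of the 150, against 17.1% of tested features. The rule that chose the members bounds the same values, so these calls give no independent support. Apart from WT 10 dpi replicate 3, single outlying values within a group were not searched for gene by gene, since each group has 3 libraries.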

How the results depend on the processing

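The members' difference between the ages in cpop1 stayed positive in all 150 under the 4 other scalings, with medians of 1.41 to 1.87 against 1.58 as deposited. Relative to the median of all tested features, which moved from -0.20 to between -0.36 and 0.08, the member median was 1.76 to 1.79 throughout. The lowest member difference was 0.98, at a common total. Members were chosen on this difference, and the scalings move members and other features largely together. These values therefore describe the set and test nothing. The bounds were met by 233 annotated genes as deposited, by 410 after a shift to a common median and 399 after quantile normalization, by 140 with a bound of 0.25 on the WT age difference and by 137 with a bound of 0.5 on the young genotype difference. With single libraries left out the number was 199 to 249. The bounds were met without each library in turn by 60 members, under all 4 other scalings by 105 and under both by 45. A pseudocount of 0.1 kept 99 members and group means in place of medians kept 115.

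Shares in brackets are of all tested features, called by the same rule. Without single libraries, calls of the cpop1 age difference ranged from 125 to 147 (5.2% to 15.1%), of the mature genotype difference from 136 to 144 (23.5% to 37.3%), and of the difference of effects from 103 to 138 (6.33% to 17.1%). Calls of the young genotype difference, 19 (22.7%), became 0 in a limma fit to the compared groups (3.06%). In that limma fit 19 members had an unadjusted p under 0.05, for which no share over all features was computed. Calls of the young genotype difference were 108 with library weights (83.5%) and 8 to 69 without single libraries (9.36% to 63.9%). Calls of the WT age difference, 5 (35.8%), became 21 under a common median (35.9%), 15 under quantile normalization (29.6%), 9 and 8 with pseudocounts of 0.1 and 0.5 (37% and 36.4%), 8 under a common total (39%), 1 in a fit to the compared groups (15.9%), 50 with library weights (65%) and 1 to 16 without single libraries (24.6% to 44.7%). The estimation of library weights stopped before convergence. The cause was not tested.

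With the replicate number as a block the counts were 134 for the cpop1 age difference (7.64%), 7 for the WT age difference (34.7%), 13 for the young (21.8%) and 140 for the mature genotype difference (29.2%), and 117 for the difference of effects (8.91%). The replicate numbers did not clearly pair the samples: 4 of 18 same-numbered pairs had a correlation of deviations above 0.1, and 4 of 12 libraries correlated best with their own number. The highest values, 0.27 and 0.22, were between WT and cpop1 at 10 dpi for replicates 1 and 3. The highest between unlike numbers was 0.19, so pairing at 10 dpi is not excluded. The block moved no count by over 1.5 times. Depth limits for low values cannot be given without read counts.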
